A study of Mus musculus with 2 samples.

Results

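Of the 2202 microRNA genes counted in myocytes of the mouse line C2C12, 201 are named from Mir6896 to Mir7094. These genes were taken by name with no measured value in the rule, though earlier results of these data were known. They cover 198 of the 199 numbers in the range, and 5 of the names carry a letter or a copy suffix. The libraries were microRNA sequencing libraries of 2 biological replicates of 1 group: C2C12 cells, a myoblast line from injured thigh muscle of C3H mice, after 72 h of differentiation, with no other treatment, genotype or time point analysed here. Both replicates come from the same line, and the labels do not say whether the cultures were differentiated separately, so an SD over them shows how far these libraries differ, and part of that may be technical. With 1 group there was no comparison between conditions, and genes are not replicates, so sets of genes are described by counts and medians with no test.

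MicroRNA numbers broadly follow the order of registration, but genes with a letter or copy suffix reuse a number. A low number therefore does not show that a gene was among those found first. Most microRNA hairpins are cut from a longer transcript by the nuclear Microprocessor complex and then by Dicer. A mirtron takes another route: the hairpin is a short intron, or lies at the edge of one, and splicing rather than Microprocessor sets its end. In a conventional mirtron the whole intron folds into the hairpin, whereas in a tailed mirtron the hairpin fills only one side of the intron and the rest is trimmed away. Mirtron products are generally rarer in cells than the classical microRNAs.

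The 4 hairpins with the highest levels show both kinds of structure. They are printed as in the RefSeq table of the GRCm38.p6 build, 5′ to 3′, with capitals for the first bases of the intron at the splice donor and the last bases at the splice acceptor where the hairpin reaches them.
Mir6994 (Patl1 intron, chr19:11923728-11923800, plus strand): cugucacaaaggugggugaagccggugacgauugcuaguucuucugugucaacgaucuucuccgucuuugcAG
Mir6944 (Dbn1 intron, chr13:55477681-55477776, minus strand): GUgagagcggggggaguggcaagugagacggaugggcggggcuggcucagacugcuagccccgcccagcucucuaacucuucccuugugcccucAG
Mir6923 (Myh3 intron, chr11:67099804-67099875, plus strand): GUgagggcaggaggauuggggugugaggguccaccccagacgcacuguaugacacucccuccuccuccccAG
Mir7018 (Hspg2 intron, chr4:137538286-137538370, plus strand): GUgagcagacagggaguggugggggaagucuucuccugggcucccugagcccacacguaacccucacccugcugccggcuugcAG
The hairpins of Mir6944, Mir6923 and Mir7018 are whole introns of 96, 72 and 85 bases, from donor to acceptor. The hairpin of Mir6994 ends at the acceptor of a 324-base intron and begins 251 bases after the donor.

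In the GENCODE M21 annotation, the late-numbered genes were nearly all placed at a splice site. All 201 lay on the strand of a host gene, of which there were 196, and 5 hosts (Ankrd52, Arap3, Cmip, Skiv2l and Srebf1) held 2 genes each. In the transcripts on that strand, 160 hairpins lay in introns only and 10 overlapped an exon, in part or whole, in every transcript. The other 31 overlapped an exon in some transcripts and not in others, among them Mir6935, Mir6945, Mir6936, Mir6990 and Mir7068. An end counted as being at a splice site when it lay within 3 bases of it. Both ends met a splice site in 14 genes (6.97%), the 3′ end alone met the acceptor in 174 (86.6%), and the 5′ end alone met the donor in 4 (1.99%). In 187 of the 188 genes that reached the acceptor, the hairpin ended on the last base of the intron. The introns that were hairpins from end to end had a median length of 81 bases (67 to 137). The tail between the donor and the hairpin in the 174 genes at the acceptor alone had a median of 502 bases, with quartiles of 81.5 and 1397. The label of mirtron-rich genes therefore holds in the annotation, and most of these genes have the tailed form.

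This structure was rare in other ranges of the numbering. Of 395 genes numbered below 600, 2 (0.506%) had an end at a splice site, against 192 of 201 (95.5%) among the late-numbered genes. Elsewhere the share was 3.90% of 205 genes from Mir600 to Mir1999, 11.1% of 144 from Mir2000 to Mir5999, 2.91% of 103 from Mir6000 to Mir6895 and 11.3% of 115 above Mir7094. The remaining 9 late-numbered genes had no end within 3 bases of a splice site. In 7 of them (Mir6901, Mir6903, Mir6904, Mir6914, Mir6925, Mir6950 and Mir7029) the hairpin ran 6 or 7 bases past the acceptor into the exon.

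**Figure D1:**
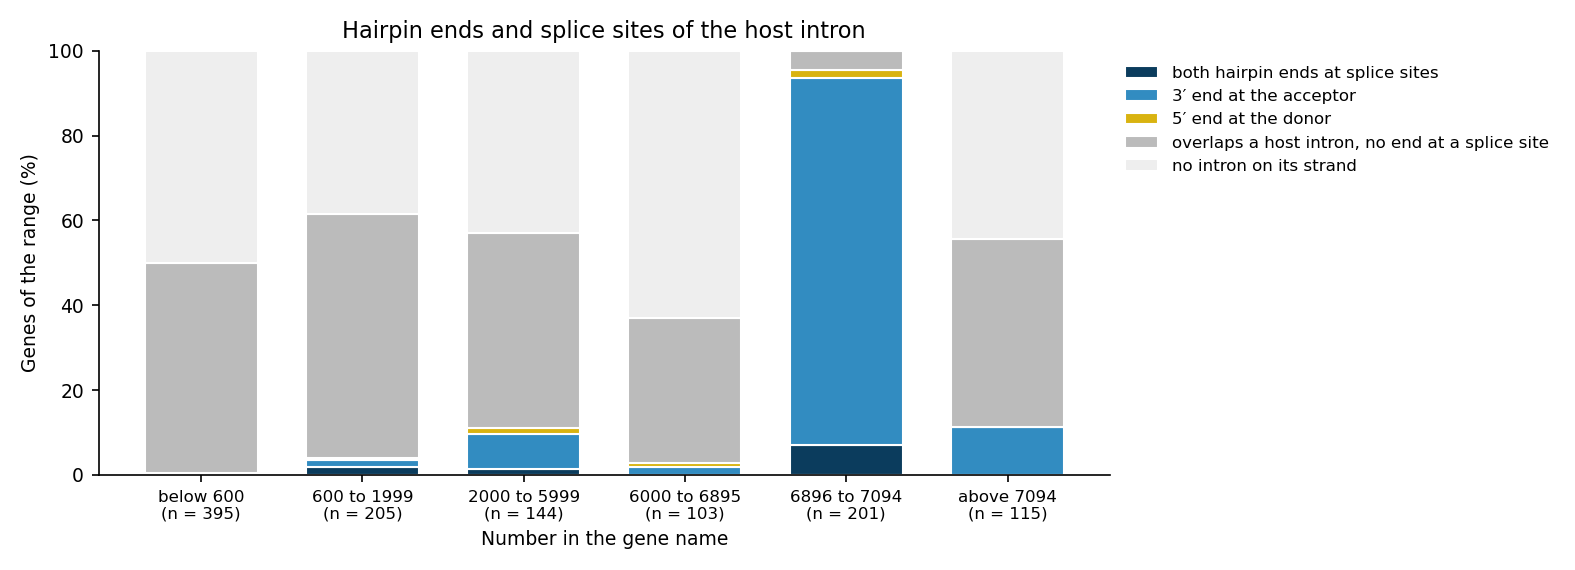
Share of genes in each range of numbers (y axis, percent) by where the ends of the hairpin lie in the host intron, with the number of genes under each bar. Ends at a splice site, within 3 bases, make up 95.5% of the genes from Mir6896 to Mir7094 and 0.506% of those numbered below 600.

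The splice sites can be read in the sequences of the annotated mature microRNAs, of which RefSeq held 354 for 185 of the late-numbered genes. The following 3p microRNAs of genes with at least 10 counts in each library end on the last base of the intron and are shown with the seed, bases 2 to 8, in capitals.
miR-6944-3p: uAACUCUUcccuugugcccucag
miR-7018-3p: uCACCCUGcugccggcuugcag
miR-6897-3p: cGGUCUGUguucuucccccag
miR-6935-3p: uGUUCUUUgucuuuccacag
miR-7083-3p: uCUGCUCUccuggaccccag
miR-6946-3p: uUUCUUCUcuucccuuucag
miR-6960-3p: aGCCAACCaccucucuccucag
miR-6900-3p: uGGUGAUGggcucucuuguag
Chosen to end there, each closes with the AG of a 3′ splice site. In most introns this AG follows a run rich in C and U. Of the 177 annotated 3p microRNAs of the late-numbered genes, 135 (76.3%) ended exactly at the acceptor and 166 (93.8%) within 3 bases of it. Their median content of C and U was 72.2% (quartiles 66.7% and 77.3%), against 50.0% (45.5% and 59.1%) in 277 annotated 3p microRNAs of genes numbered below 600. On the 5p side the content was 31.8% in 177 late-numbered microRNAs and 52.2% in 278 of the others. The hairpin closed with AG in 187 of 201 late-numbered genes (93.0%), in 30 of 395 genes numbered below 600 (7.59%) and in 7.40% of all 2001 genes outside the range. The late-numbered share is not separate from the structure, since 187 of these hairpins ended on the last base of the intron. The hairpin opened with GT, in the DNA letters of the annotation, in 31 late-numbered genes (15.4%). The shares were 5.82% of the genes numbered below 600 and 5.70% of all genes outside the range. The 5′ end met a donor in only 14 late-numbered genes with both ends at splice sites and 4 at the donor alone. Not every GT opening is therefore a donor.

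The late-numbered hairpins also differed in size and uniqueness from those numbered below 600. Their median length was 66 bases (52 to 137) and their median GC content 57.1%, against 82 bases and 46.3% for genes numbered below 600. The predicted folding energy had a median of −0.39 kcal/mol per base, and −0.42 kcal/mol per base for genes numbered below 600. Only 4 of the 201 late-numbered hairpins (1.99%) shared a run of 20 bases with another annotated microRNA hairpin, against 183 of 395 (46.3%) below 600. Above Mir7094 the median length and GC content were 63 bases and 53.6%, and 9.57% of hairpins shared such a run. From Mir6000 to Mir6895 the medians were 105 bases and 49.3%, and 5.83% shared one. The layout of the deposited tables holds reads that fit more than 1 place apart from the genes, so the comparison of counted genes between the ranges is also given without such hairpins. The 4 late-numbered genes were Mir6970, Mir7065 and the copies Mir7094-1 and Mir7094-2. Only Mir6970 had any counts, 2 of them, all from replicate 1.

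The libraries held 7581366 counts on the sense strand of microRNA genes in replicate 1 and 9865298 in replicate 2. One count equals 0.132 CPM (counts scaled to 1000000 such counts) in replicate 1 and 0.101 CPM in replicate 2. Muscle identity was checked with 9 microRNA genes enriched in skeletal muscle, of which 7 had at least 10 counts in each library. The 9 summed to 355315 and 428275 CPM, of which Mir206 alone gave 340841 and 416794 CPM. Mir133a-1, with 9 and 28 counts, and Mir133a-2, with 8 and 10, fell short of the minimum. Mir1a-1 and Mir1a-2 had means of 2.94 and 3.02 CPM. The 6 neural markers summed to 0 and 0.101 CPM, with Mir124a-1, Mir124a-2, Mir124a-3, Mir9-1 and Mir9-2 at 0. They are copies of Mir124a and Mir9, and Mir1a and Mir133a on the muscle list also have copies. Reads that fit more than 1 place are held apart from the genes, so low values at such copies cannot show a lack. The 10 pluripotent markers summed to 0.791 and 0.405 CPM, with 6 at 0. The 5 epithelial markers summed to 4.35 and 2.13 CPM (Mir200a and Mir429 at 0), the liver marker Mir122 had 1.06 and 0.405 CPM, the 4 blood markers 101.3 and 183 CPM, and the endothelial marker Mir126a 217 and 42.9 CPM.

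Counts were found for 141 of the 201 late-numbered genes (70.1%), and nearly all of them were few. Replicate 1 held at least 1 count for 126 genes, replicate 2 for 123, and 108 genes were shared. Counts came from replicate 1 alone for 18 genes and from replicate 2 alone for 15. The other 60 genes had 0 counts, a result that leaves room for levels of 0.396 CPM (replicate 1) and 0.304 CPM (replicate 2), equal to 3 counts and covering counting error only. Summed over the libraries, 13 genes had 1 count, 80 had 2 to 9, 45 had 10 to 99 and 3 had 100 or more. At least 10 counts in each library, called detected from here on, were reached by 15 genes (7.46%). Over all 2202 microRNA genes, 32.2% had a count and 14.3% were detected. The minimum falls where many of these genes lie: Mir6977 with 12 and 11 counts was just inside, and Mir6896 with 9 and 25, Mir6968 with 4 and 29 and Mir7052 with 7 and 26 were just outside in spite of higher totals.

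All late-numbered genes together had 784 counts in replicate 1 and 1048 in replicate 2. This was 0.0103% (exact Clopper-Pearson 95% interval 0.00963% to 0.0111%) and 0.0106% (0.00999% to 0.0113%) of the assigned counts, or 0.0105% ± 0.000199 (SD, n = 2), from 9.13% of the genes. The intervals cover counting error only, since the tables count reads and not molecules, and they overlap between the libraries. Reads lay on the annotated strand, with 784 sense and 2 antisense reads in replicate 1 and 1048 and 2 in replicate 2, or 99.8% ± 0.0452 (SD, n = 2). The antisense reads were 2 at Mir7071 in replicate 1, beside 4 sense counts, and 2 at Mir7032 in replicate 2, beside 6. The sense share was 99.7% and 99.6% for genes numbered below 600, and 91.1% and 86.9% for all microRNA genes. All 201 late-numbered genes lie on the strand of a host, so this share cannot tell reads of the hairpin from other reads of the host.

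Set against the genes numbered below 600, the late-numbered genes had a similar share with counts and lower levels. A count in at least 1 library was found for 254 of 395 genes numbered below 600 (64.3%), against 70.1% of the late-numbered genes. The order of these shares turned with the processing: a count in each library was found for 53.7% of the late-numbered genes and 56.2% of those below 600, and without hairpins that share 20 bases the shares were 71.1% and 73.1%. Detected genes were 189 of 395 (47.8%) below 600 and 7.46% of the late-numbered genes. Of the genes with any count, 93 of 141 late-numbered genes (66.0%) had fewer than 10 over both libraries, and 49 of 254 (19.3%) of the others.

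**Figure D2:**
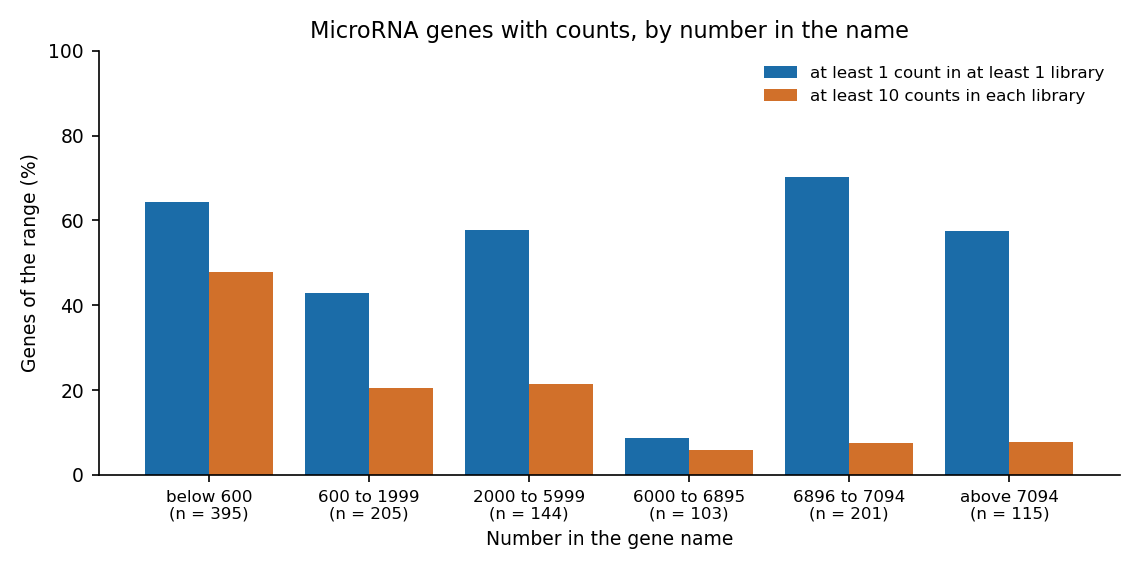
Percent of genes in each range of numbers (y axis) with at least 1 count in at least 1 library and with at least 10 counts in each library, with the number of genes under each pair of bars. Genes from Mir6896 to Mir7094 have counts in 70.1% and reach 10 in each library in 7.46%, whereas genes numbered below 600 stand at 64.3% and 47.8%.

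Both neighbouring ranges had smaller shares with counts than the late-numbered genes. Genes from Mir6000 to Mir6895 had counts in 8.74% of 103 genes and were detected in 5.83%. Genes above Mir7094 had counts in 57.4% of 115 genes and were detected in 7.83%. In the ranges from Mir600 to Mir1999 and from Mir2000 to Mir5999, 42.9% and 57.6% had counts and 20.5% and 21.5% were detected. Few counts were not particular to the late-numbered genes. Of the genes above Mir7094 with a count, 68.2% had fewer than 10 over both libraries, and their median was 0.203 CPM. The shares were 22.2% from Mir6000 to Mir6895, 43.4% from Mir2000 to Mir5999 and 31.8% from Mir600 to Mir1999. The medians there were 3.05, 1.02 and 1.42 CPM.

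Among genes with a count, the median of the mean CPM was 0.365 for 141 late-numbered genes and 56.1 for 254 genes numbered below 600. On the log2(CPM + 1) scale the medians were 0.49 ± 0.00710 and 5.71 ± 0.456 (SD of the libraries' medians, n = 2). Among detected genes the medians were 2.32 CPM (15 genes) and 231 CPM (189 genes), a 99.4-fold difference, or 141.0-fold in replicate 1 and 68.7-fold in replicate 2. The minimum of 10 counts equals 1.32 CPM in replicate 1 and 1.01 CPM in replicate 2, close to the late-numbered median. It was passed by 7.46% of the late-numbered genes and 47.8% of the others, so this fold depends on the minimum. No late-numbered gene had a mean above 9.79 CPM, and 158 of 395 genes numbered below 600 (40.0%) did. The scale of the libraries is set by Mir206, a microRNA of skeletal muscle, with 378817 ± 53707 CPM, Mir378a with 112998 ± 36038 CPM and Mir21a with 60909 ± 30275 CPM (SD, n = 2). At the other end, Mir215, the lowest detected gene numbered below 600, had 11 counts in each library (1.28 ± 0.238 CPM), close to Mir6977, the lowest detected late-numbered gene, with 1.35 ± 0.331 CPM.

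**Figure D3:**
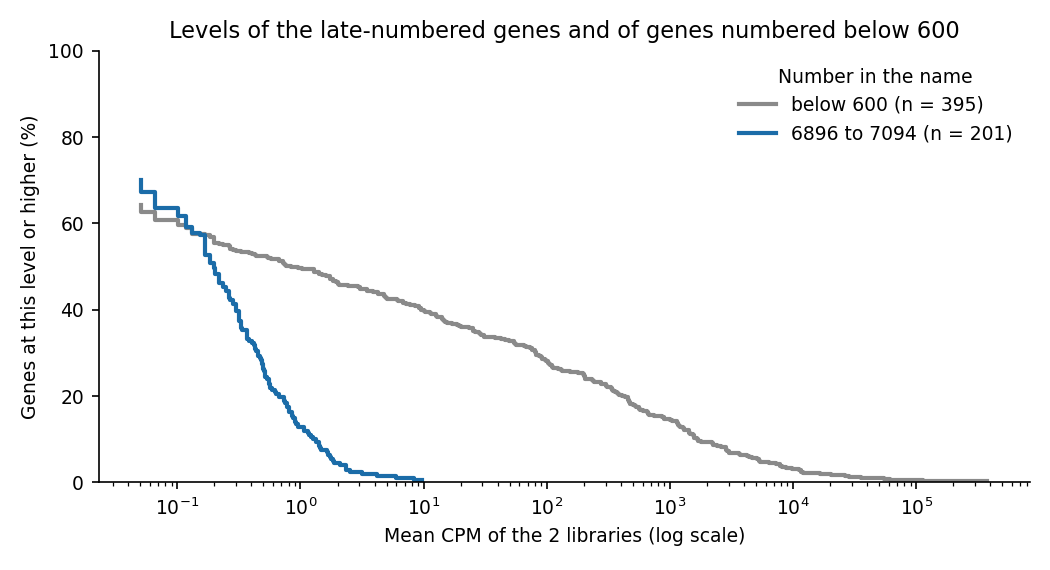
Percent of genes (y axis) at or above each mean CPM of the 2 libraries (x axis, log scale), for 201 genes from Mir6896 to Mir7094 and 395 genes numbered below 600. The lines begin near each other at 1 count, and the late-numbered genes end at 9.79 CPM while 40.0% of the others lie above that level.

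The highest late-numbered gene was Mir6994, in an intron of Patl1, which encodes a factor of mRNA decapping and decay. Mir6994 had 67 counts (8.84 CPM) in replicate 1 and 106 (10.7 CPM) in replicate 2, or 9.79 ± 1.35 CPM (SD, n = 2). This placed it at rank 213 of all microRNA genes. Mir6944, the whole intron of the gene of the actin-binding protein drebrin (Dbn1), had 70 counts (9.23 CPM) and 74 (7.50 CPM), or 8.37 ± 1.22 CPM. Mir7018, an intron of Hspg2, which encodes the basement membrane proteoglycan perlecan, had 37 counts (4.88 CPM) and 34 (3.45 CPM), or 4.16 ± 1.01 CPM. None of these 3 genes passed the test between the replicates that is described with Mir6923, and the order of Mir6994 and Mir6944 was not the same in both.

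Mir6923 was the only late-numbered gene with a host on a list of 89 muscle genes, and it ranked 3 in level. It is a whole intron of Myh3, which encodes the embryonic myosin heavy chain of forming and regenerating muscle fibres. Mir6923 had 34 counts (4.48 CPM) in replicate 1 and 74 (7.50 CPM) in replicate 2, or 5.99 ± 2.13 CPM (SD, n = 2). The level in replicate 2 was 1.67 times that in replicate 1. An exact two-sided binomial test, adjusted by Benjamini-Hochberg over 314 detected genes, set the libraries apart by more than counting error. The test compares the reads of these 2 libraries and covers counting error only, so it says nothing of the spread between cultures. Myh3 transcripts were not analysed here.

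Next in level, Mir6903 had 30 counts (3.96 CPM) and 23 (2.33 CPM). It reaches 6 bases into an exon of Atp2b4, the gene of a calcium pump of the plasma membrane. Mir6897, at the acceptor of a 1780-base intron of Uggt1, which encodes a folding sensor of glycoproteins in the endoplasmic reticulum, had 24 and 19 counts. Both were higher in replicate 1 by CPM, and neither passed the binomial test. Mir6935 (chr11:120347350-120347413, minus strand), at the acceptor of an intron of the gamma actin gene Actg1, had 10 counts (1.32 CPM) and 33 (3.35 CPM). The level in replicate 2 was 2.54 times that in replicate 1, which also passed the test of counting error between these libraries.

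The remaining detected genes had mean levels between 1.35 and 2.32 CPM. Mir7083, in Dock6, had 16 and 25 counts. Mir6946, in the gene of the COPII coat protein Sec24c, had 14 and 23. Mir6945, in Pdlim7, which encodes a PDZ and LIM domain protein bound to actin, had 13 and 19. Counts were likewise 10 or more for Mir6960 (Troap; 12 and 17), Mir7069 (Farsa, a subunit of phenylalanine tRNA synthetase; 10 and 15) and Mir6900 (Ndufa10, a subunit of respiratory complex I; 13 and 11). Mir6936, in the sirtuin gene Sirt7, had 14 and 10 counts and Mir6977, in the receptor phosphatase gene Ptprs, had 12 and 11. Mir6936 and Mir6977 are of the rare form whose 5′ end meets the donor. Among the 20 highest genes with counts in each library, 5 fell short of 10 counts in replicate 1: Mir6896 (Dst, a cytoskeletal linker), Mir7052 (Josd2, a deubiquitinase), Mir6968 (Phf1, a Polycomb-associated protein), Mir6990 (Esrra, a nuclear receptor of mitochondrial genes) and Mir7068 (Cherp). They had 4 to 9 counts in replicate 1 and 17 to 29 in replicate 2.

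**Figure D4:**
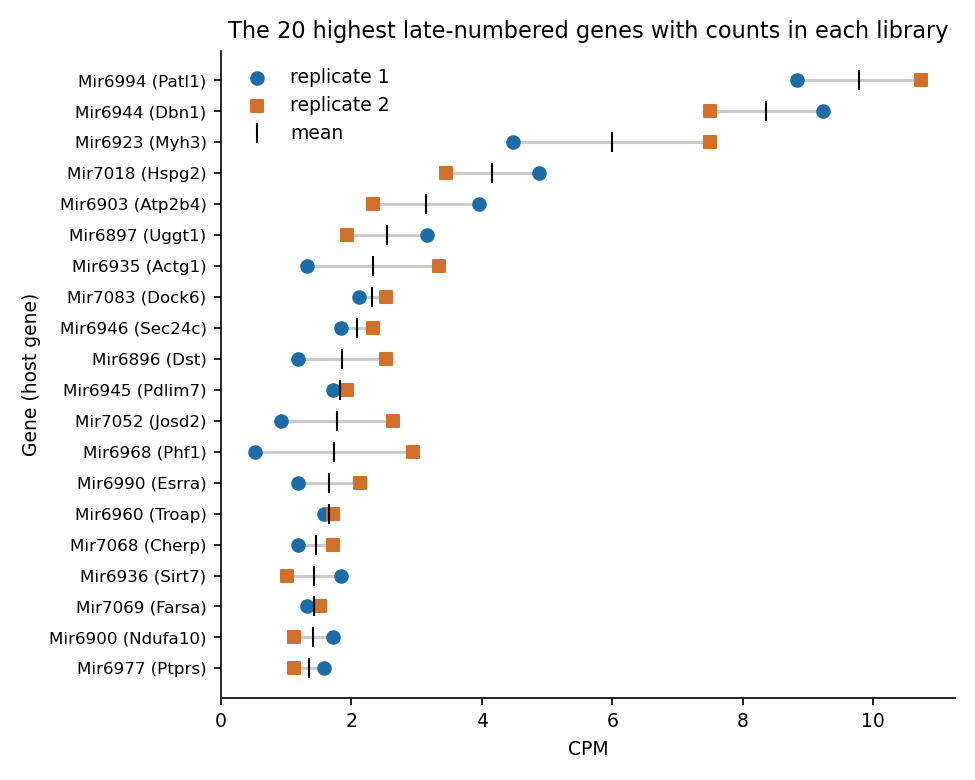
CPM (x axis) of the 20 highest late-numbered genes with counts in each library, with the host gene in brackets, for each replicate and the mean. Mir6994, Mir6944, Mir6923 and Mir7018 have means from 4.16 to 9.79 CPM and the other 16 lie between 1.35 and 3.14 CPM.

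The replicates were compared for the 15 detected late-numbered genes, of which 2 passed the exact binomial test for counting error, Mir6923 and Mir6935, both with more in replicate 2. Over all 314 detected genes 66.6% passed, and 151 of 189 genes numbered below 600. The test needs counts to see a difference, and the late-numbered genes had few: their median absolute log2 ratio was 0.50, and that of the detected genes below 600 was also 0.50. A lower count of calls is therefore no sign of closer replicates. With a minimum of 10 counts over both libraries in place of each, 7 of 48 late-numbered genes passed, where 55.4% of 415 genes of any name did. With no minimum it was 9 of 141, where 31.9% of 708 did. Over the 141 genes with a count, the CPM of the libraries had a Spearman rank correlation of 0.559, given as a description across genes, which share library and depth.

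**Figure D5:**
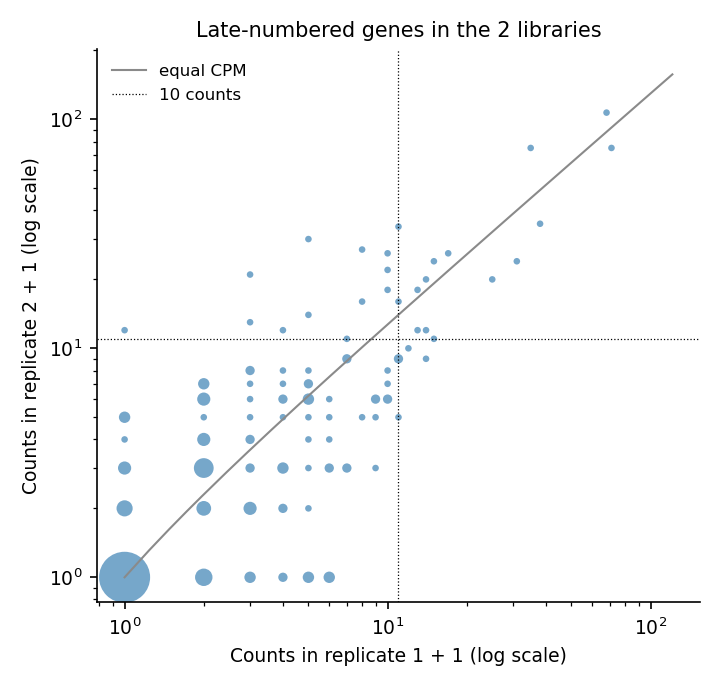
Counts plus 1 of the 201 late-numbered genes in replicate 1 (x axis) and replicate 2 (y axis), both on log scales, with larger points where more genes have the same pair of counts. The solid line marks equal CPM and the dotted lines 10 counts; 15 genes reach both dotted lines, and 60 genes lie at 0 in both libraries.

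Structure within the range was set beside the counts. Of the 14 whole-intron hairpins 10 had counts (71.4%) and 3 were detected, and these 3, Mir6944, Mir6923 and Mir7018, came next in level after Mir6994. Of the 174 hairpins at the acceptor alone 120 had counts (69.0%) and 9 were detected (5.17%). Of the 4 hairpins at the donor alone 3 had counts and 2 were detected, and of the 9 with no end at a splice site 8 had counts and 1, Mir6903, was detected. Genes with and without counts had median lengths of 66 and 64 bases, GC contents of 57.4% and 56.3% and host introns of 450 and 602 bases.

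Outside the range, 41 genes had a hairpin that ended at the acceptor, with or without the donor. Of these 27 had counts (65.9%) and 11 were detected (26.8%), against 130 (69.1%) and 12 (6.38%) of the 188 late-numbered genes of that structure. The highest were Mir3102, a whole intron of Arhgef17, with 152 ± 41.0 CPM, Mir1981 (Marc2) with 66.0 ± 6.63 CPM and Mir877 (Abcf1) with 57.9 ± 11.9 CPM (SD, n = 2), all above Mir6994. Mir1224, a whole intron of Vwa5b2 and long described as a mirtron, had 0 counts in both libraries, and Mir702 had 13 and 43.

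The seed is the part of a microRNA that pairs with its targets, and some late-numbered genes share one. The 354 annotated mature microRNAs had 325 different seeds. A seed was shared with another late-numbered gene by 53 of the 185 genes with a mature sequence, and no more than 3 genes had the same one. One group of 3 genes, Mir7018, Mir7068 and Mir7023, is shown because it includes a detected whole-intron hairpin, and its shared seed lies in 3p microRNAs that end at a splice acceptor.
miR-7018-3p: uCACCCUGcugccggcuugcag
miR-7068-3p: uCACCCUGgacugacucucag
miR-7023-3p: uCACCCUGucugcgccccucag
Mir7018 had 37 and 34 counts and Mir7068 had 9 and 17, whereas Mir7023 had 0 in both. The tables count whole hairpins, so the arm that gave these reads is not known for these genes or for those that follow.

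A seed in common with a microRNA of any gene numbered below 600 was found for 18 of the 185 late-numbered genes with a mature sequence. For 4 of them that gene was abundant, with a mean of at least 1000 CPM. Of 57 abundant genes numbered below 600, 50 had a mature sequence. Whether so many matches would arise by chance was not tested. Each of the 4 is shown above the microRNA it matches.
miR-7016-5p: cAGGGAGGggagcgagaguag
miR-149-3p: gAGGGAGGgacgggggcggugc
miR-7014-3p: cCUCUUUCauaccaaccacag
miR-130b-5p: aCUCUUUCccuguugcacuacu
miR-7061-3p: uAUCCCUUuuauuuccuuuuag
miR-188-5p: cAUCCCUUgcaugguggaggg
miR-6921-5p: uGAGGGGCaugagguaggaagc
miR-423-5p: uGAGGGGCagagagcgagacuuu
Mir7016 had 7 counts in replicate 1 and 4 in replicate 2, Mir7014 had 1 and 3, Mir7061 had 2 and 1, and Mir6921 had 1 and 0. Mir149 had a mean of 7867 CPM, Mir188 of 4419, Mir130b of 1551 and Mir423 of 1271.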

How the data were processed

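The authors deposited, for each of 2 libraries, raw read counts per microRNA gene, in 3 columns (either, sense and antisense strand) with 4 summary entries, per the files; the build was mm10 and the annotation M21, per the deposited notes, and adapters were trimmed, per the labels' protocols. The aligner and the counting program were not given in the sources used here. Sense counts were used. The summary entries stayed out of library sizes, which held 49.4% and 53.5% of reads; multi-mapped reads were 22.0% and 17.9%. CPM and all further values were computed here (Python 3.11.15, pandas 2.3.3, scipy 1.17.1). All 2202 identifiers matched GENCODE M21, from which hosts, introns and hairpins were taken; folding energies came from RNAfold 2.7.2. Replicates were compared gene by gene in a two-sided exact binomial test, each library's total setting the expected share. It was Benjamini-Hochberg adjusted over the 314 genes with at least 10 counts in each library, at a threshold of 0.05. The simulated data on which the test was tried held counting error only. They cannot show how it behaves where libraries differ by more than that. TMM factors (edgeR 4.0.16) and DESeq2 1.42.0 size factors were alternatives. Named genes are the 20 highest with counts in each library, all detected genes, those with most antisense reads, with a muscle host or with the seed of an abundant gene, and a few genes for scale. Members and lists were chosen with earlier results of these data known.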

Additional observations from a re-analysis of the deposited data

How the results depend on the processing

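The share of late-numbered genes with a count was 53.7% with a count required in each library and 57.7% with at least 3 counts over both, and 61.2% to 62.7% in single libraries. For genes numbered below 600 it was 56.2% and 57.5% under these minimums, 59.0% to 61.5% in single libraries, 59.0% in the either-strand counts and 73.1% without hairpins that share 20 bases. With minimums of 1, 3 and 100 counts in each library in place of 10, 108, 55 and 0 late-numbered genes were detected (53.7%, 27.4% and 0%), against 56.2%, 51.9% and 37.0% below 600. Single libraries gave 20 to 27 late-numbered genes (9.95% to 13.4%) and 48.6% to 49.9% below 600. Below 600, 43.8% were detected in the either-strand counts and 56.6% without hairpins that share 20 bases. The share of counts was 0.0120% in the either-strand counts, 0.00539% of all reads, and 0.0103% to 0.0106% in single libraries. The median level of late-numbered genes with a count was −1.0 and 3.38 on the log2 scale with pseudocounts of 0.1 and 10 CPM. With at least 10 counts over both libraries 7 of 48 late-numbered genes differed between the replicates by more than counting error (55.4% of all 415 genes tested), and 9 of 141 with no minimum (31.9% of 708). TMM factors and DESeq2 size factors gave 2, as library totals did. In single libraries, 59.9% to 62.5% of genes with an end at a splice site had counts, and 66.7% to 88.9% of the 9 without. Tolerances of 0 and 10 bases left 191 and 199 genes with an end at a splice site. No test between conditions or paired analysis was possible because there is 1 group.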

Other observations

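Several late-numbered genes had most of their counts in replicate 2 and too few in replicate 1 to be detected. Mir7033, in an intron of the nuclear pore gene Pom121, had 2 counts in replicate 1 and 20 in replicate 2. Mir7024 had 0 and 11, where 0 allows up to 0.396 CPM, and Mir6968 had 4 and 29. Toward replicate 1, Mir7021 had 8 and 2 counts and Mir6971 had 10 and 4. These genes were chosen after their values were seen.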
